A study of Mus musculus with 2 samples.

Results

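The endoplasmic reticulum (ER) folding machinery and the unfolded protein response were examined as a set of 41 genes of 18194 named genes on the array, chosen by name and grouped as 11 chaperones and co-chaperones, 7 disulfide isomerases and oxidases, 8 sensors and transcription factors, 10 genes of ER-associated degradation and 5 genes of translocation into the ER. Of these, 36 were measured, that is, had a signal intensity above 500 in at least 1 of the 2 arrays, and 5 (Ero1a, Atf6b, Mbtps2, Wfs1 and Derl3) were not. Next to this limit, Edem2 gave a signal of 570 in FLS livers against 598 in DS livers, and Ero1a of 472 in FLS livers against 391 in DS livers.

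FLS (fatty liver Shionogi) mice are an inbred strain that develops steatohepatitis spontaneously and serve as the NASH model. DS (dd Shionogi) mice are an inbred strain derived separately from the outbred ddN colony from which FLS also comes, and serve as the model of simple steatosis. Mice of both strains were 19 weeks old, were fed the same standard pellet diet and received no treatment, and their livers were flushed with saline to remove blood. Total RNA of 3 livers per strain was pooled and hybridized to 1 Affymetrix mouse genome array of 45101 probe sets per strain, so every value below is that of a pool and carries no measure of the spread between mice. No p-value can be given, and no difference has a replicate check.

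Proteins that a cell secretes or places in its membranes enter the ER through the translocon, are folded there by chaperones and disulfide isomerases, and are returned to the cytosol for degradation if folding fails. Unfolded proteins in the ER activate the sensors IRE1, ATF6 and PERK, which raise the expression of chaperones and degradation factors and restrain translation, a program named the unfolded protein response. Hepatocytes secrete most plasma proteins and have an extensive ER, and ER stress is widely studied in fatty liver.

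As a set, these genes had almost equal signals in the FLS and DS livers. Of the 36 measured members, 21 had a ratio of FLS to DS signal above 1 and 15 below 1. Over all 5076 measured genes, 2861 were above 1 and 2215 below. The median log2 ratio was 0.06 over the members, against 0.04 over all measured genes. At least 1.5-fold higher in FLS livers was 1 member, Pdia4, where 6.11% of all measured genes were. At least 1.5-fold lower was 1 member, Derl2, where 4.49% of all measured genes were. None of the 36 reached 2-fold, which 2.29% of all measured genes did upward and 1.77% downward. By at least 25%, 3 members were higher (Pdia4, Sdf2l1 and Syvn1), where 17.5% of all measured genes were. By at least 20%, the inverse of this ratio, 3 were lower (Derl2, Dnajc3 and Ssr3), where 11.2% of all measured genes were. The other 30 members lay between these limits, which 28.7% of all measured genes passed on either side. The median absolute log2 ratio was 0.12 over the members and 0.19 over all measured genes. Among genes with a signal above 1000 it was 0.11 over 31 members and 0.18 over 2902 genes. These shares describe 1 pair of arrays, and with 1 array per strain the difference between the members and the other genes could not be tested.

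**Figure D1:**
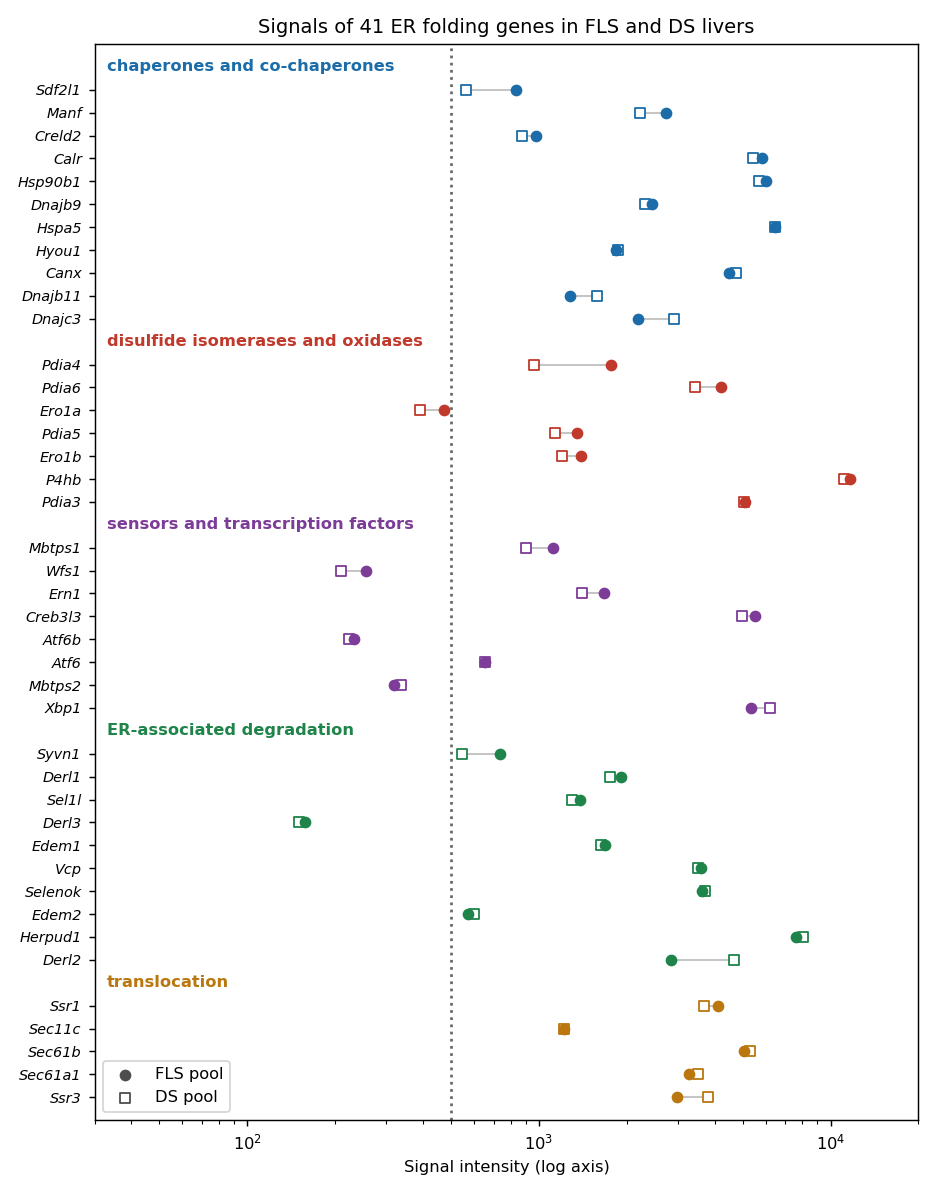
Signal intensity (log axis) of the 41 genes in the FLS pool (filled circles) and the DS pool (open squares), 1 array each, ordered by FLS/DS ratio within each group, with a dotted line at 500. Most pairs of symbols nearly coincide, and the widest gaps are those of Pdia4 (1763 in FLS, 961 in DS), Derl2 (2838 in FLS, 4669 in DS) and Sdf2l1 (834 in FLS, 561 in DS).

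The sources do not describe the scaling applied between the arrays, and a ratio close to 1 can change side with the scaling. Over quantile normalization, centring on the median, removal of a loess trend and division by the ratio of Actb, 21 of the 36 members kept a ratio above 1, 5 kept a ratio below 1 and 10 lay on both sides. Actb, the gene for cytoplasmic beta-actin, had a ratio of 0.867, so its use adds 0.21 to every log2 ratio. The median of all measured genes then became 0.25 and that of the members 0.27, and 3 members passed 1.5-fold upward and 0 downward, beside 14% and 2.66% of all measured genes. Centring gave 2 members higher and 1 lower, beside 7.25% and 4.08% of all measured genes.

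The samples were liver by their markers. Of 12 hepatocyte markers, 10 were named on the array and all 10 were measured, with ratios from 0.998 to 1.07. The summed signal of plasma and B cell markers, cells that are also rich in ER, was 5472 in FLS livers against 5351 in DS livers over 11 genes. Most of this sum was Sdc1, at 4018 in FLS livers against 3740 in DS livers, and without it the sum was 1454 in FLS livers against 1611 in DS livers. The other measured marker, Ighm, had a ratio of 0.777, and 7 of the 11 genes were below 1. The plasma cell genes Jchain (ratio 1.33) and Mzb1 (ratio 0.954) were below 500 in both pools. The summed signal of 10 pancreatic acinar markers was 3465 in FLS livers against 3777 in DS livers, of which only Cela1 was measured. Stellate cell markers summed to 13731 in FLS livers against 9453 in DS livers over 10 genes, of which 5 were measured, all higher in FLS livers. The 4 of these above 500 in both pools had ratios from 1.31 to 2.78, and Col1a2 was above 500 only in FLS livers. Of the 5 not measured, Lrat (ratio 0.880) and Des (ratio 0.987) were below 1, and Pdgfrb, Col1a1 and Hand2 above 1. Kupffer cell and macrophage markers summed to 4288 in FLS livers against 4815 in DS livers over 9 genes, of which 5 were measured, 4 of them lower in FLS livers. Only 2 of the 5 were above 500 in both pools, Csf1r (ratio 0.993) and Lyz2 (ratio 1.43). Adgre1, Clec4f and Vsig4 were above 500 only in DS livers, where they were higher. Of the 4 not measured, Timd4 (ratio 0.570), Cd163 (ratio 0.661) and Marco (ratio 0.838) were below 1, and Cd68 (ratio 1.26) above 1. No marker was listed at 0, and the part of these cells in the ratios of the ER genes was not tested. In bulk RNA, fewer cells of a type and less RNA per cell cannot be told apart.

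A part of the members shares a regulatory sequence. ATF6 and XBP1 act through the ER stress response element (ERSE), which is CCAAT, any 9 bases and CCACG, and in which NF-Y binds CCAAT and ATF6 or XBP1 binds CCACG, and through ERSE-II, which is ATTGG, any base and CCACG. Promoter windows from RefSeq (GRCm38.p6) ran from 250 bases before to 50 after a transcription start. They were found for 35 of the 41 genes and searched on both strands. The other 6 genes, Manf, Hyou1, Derl1, Atf6, Sec61a1 and Sec11c, had no window and were not searched. An exact ERSE was present in 10 of the 35 genes with a window (28.6%). Of all 27025 genes with a window, 37 had one, these 10 included, as did 39 of 32851 windows (0.119%). An exact ERSE-II was present in 2 of the 35 genes (5.71%), in 12 of all 27025 genes, and in 0.0365% of all windows. Both motifs share the CCACG part, and no member had both. A further motif of XBP1 and ATF6 is the unfolded protein response element TGACGTGG, which contains the reverse complement of CCACG. It was found in 1 member, Vcp, in 193 of all 27025 genes, and in 0.676% of all windows. The members were chosen by function, and genes with known sites of this kind were among those chosen. A match describes the letters in the window and not the binding of a factor in these livers.

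The ERSE matches are printed here in the direction of the motif, with the CCAAT and CCACG parts in capitals and 5 flanking bases on each side, because they are what the promoters of these 10 genes share.
Hspa5 (chr2:34772020-34772048, + strand): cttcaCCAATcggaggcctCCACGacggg
Hsp90b1 (chr10:86705528-86705556, + strand): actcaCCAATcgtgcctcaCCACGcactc
Hsp90b1 (chr10:86705633-86705661, - strand): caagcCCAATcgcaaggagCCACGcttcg
Calr (chr8:84847070-84847098, + strand): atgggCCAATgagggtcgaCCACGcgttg
Canx (chr11:50325795-50325823, - strand): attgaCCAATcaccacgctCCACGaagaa
Dnajc3 (chr14:118937822-118937850, + strand): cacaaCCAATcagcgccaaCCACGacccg
Creld2 (chr15:88819515-88819543, - strand): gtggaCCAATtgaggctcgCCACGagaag
Pdia6 (chr12:17266486-17266514, + strand): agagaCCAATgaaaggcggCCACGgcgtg
Ero1b (chr13:12565677-12565705, - strand): ggcggCCAATgaggcgggaCCACGaggcc
Syvn1 (chr19:6046527-6046555, + strand): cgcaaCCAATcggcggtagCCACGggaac
Derl3 (chr10:75893237-75893265, - strand): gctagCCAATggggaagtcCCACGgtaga
Hsp90b1, which encodes GRP94, was the member with 2 matches. The 9 bases between the capitals differed from site to site. The matches began between 212 and 44 bases before the start of transcription. The ERSE-II matches have ATTGG and CCACG in capitals.
Dnajb11 (chr16:22857847-22857867, + strand): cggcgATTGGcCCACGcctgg
Herpud1 (chr8:94386372-94386392, + strand): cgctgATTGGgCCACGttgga
The match of Herpud1 began 52 bases before the start, and that of Dnajb11 began 7 bases after it.

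The genes with these elements had no common shift between the strains. The 11 measured members with an ERSE or ERSE-II had ratios from 0.753 (Dnajc3) to 1.35 (Syvn1), with a median log2 ratio of 0.08. The 19 measured members with a promoter window but no exact match of either had ratios from 0.608 to 1.83, with a median of 0.07. Pdia4 and Derl2, the members past 1.5-fold, had no exact match of either element. Sites with a mismatch were not searched for, so such a site may be present in these windows. This comparison of medians is a description, and no test could be made.

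**Figure D2:**
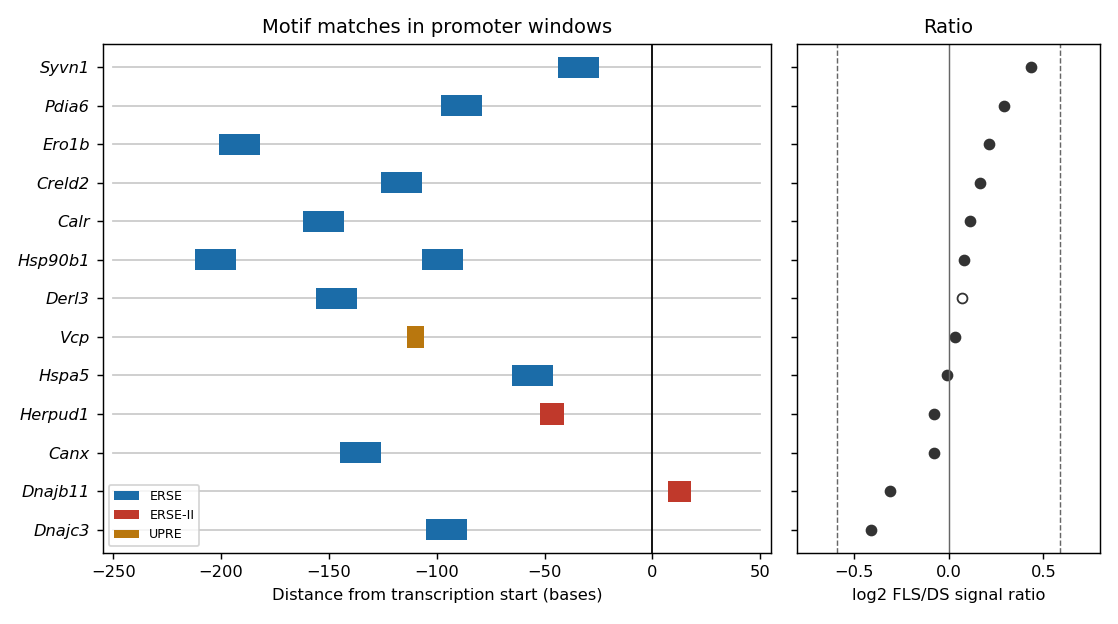
Position of each ERSE, ERSE-II and UPRE match (left, bases from the start of transcription, negative upstream) and log2 FLS/DS ratio (right, dashed lines at 1.5-fold, open symbol below the signal limit) for the 13 genes with a match. The genes are ordered by ratio from Syvn1 (1.35) to Dnajc3 (0.753), and none passes a dashed line.

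Chaperones had ratios on both sides of 1. All 11 were measured, 6 with a ratio above 1 and 5 below, with a median log2 ratio of 0.08. Hspa5, which encodes BiP (GRP78), the main ER chaperone and the usual marker of ER stress, gave a signal of 6424 in FLS livers against 6458 in DS livers, a ratio of 0.995. Its other 2 measured probe sets had ratios of 0.952 and 0.951, so all 3 were close to 1. The 250 bases upstream of Hspa5 hold 4 copies of CCAAT, counted on both strands, and 1 of CCACG, all in capitals here, as the promoter of the gene that stands for this response.
Hspa5 (chr2:34771840-34772089, + strand): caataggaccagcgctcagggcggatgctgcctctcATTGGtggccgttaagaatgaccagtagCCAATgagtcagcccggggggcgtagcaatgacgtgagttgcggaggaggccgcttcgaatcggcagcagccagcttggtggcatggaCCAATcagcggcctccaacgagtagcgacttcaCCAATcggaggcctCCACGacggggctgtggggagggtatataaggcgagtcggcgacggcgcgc
Hsp90b1, the ER member of the HSP90 family, gave a signal of 6015 in FLS livers against 5677 in DS livers, a ratio of 1.06, while its dimmer probe set had a ratio of 0.818. Hyou1 (GRP170), a nucleotide exchange factor of BiP, gave a signal of 1832 in FLS livers against 1864 in DS livers, a ratio of 0.983. A dim probe set of Hyou1, at 342 in FLS livers against 506 in DS livers, had a ratio of 0.675. In both genes the brighter probe set was near 1 and the dimmer one lower in FLS livers.

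The lectin chaperones calreticulin and calnexin, which hold glycoproteins during folding, differed little. Calr gave a signal of 5841 in FLS livers against 5404 in DS livers (ratio 1.08), with ratios from 1.06 to 1.08 over 3 probe sets. Canx gave a signal of 4477 in FLS livers against 4723 in DS livers (ratio 0.948), and 0.834 on its other measured probe set.

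The J-domain partners of BiP had unlike ratios. Dnajb9 (ERdj4), a target of XBP1, gave a signal of 2447 in FLS livers against 2316 in DS livers, a ratio of 1.06. Dnajb11 (ERdj3) had 1282 in FLS livers against 1585 in DS livers, a ratio of 0.809. Dnajc3 (p58IPK), which also inhibits PERK, had 2181 in FLS livers against 2895 in DS livers, a ratio of 0.753. Dnajc3 was the lowest of the chaperones, and its 3 measured probe sets all lay below 1, from 0.753 to 0.859.

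The highest ratio of the group belonged to Sdf2l1, which encodes a partner of ERdj3 that is induced by ER stress. Its signal was 834 in FLS livers against 561 in DS livers, a ratio of 1.49, just below the 1.5-fold limit. Manf, a secreted ER stress protein, had 2738 in FLS livers against 2219 in DS livers, a ratio of 1.23. Creld2, another ER stress-inducible secreted protein, had 979 in FLS livers against 872 in DS livers, a ratio of 1.12. These 3 genes have 1 probe set each, so no further probe set bears on them. The 250 bases upstream of Sdf2l1 hold 3 copies of CCAAT and 3 of CCACG, but not at the spacing of an ERSE or ERSE-II.
Sdf2l1 (chr16:17132384-17132633, - strand): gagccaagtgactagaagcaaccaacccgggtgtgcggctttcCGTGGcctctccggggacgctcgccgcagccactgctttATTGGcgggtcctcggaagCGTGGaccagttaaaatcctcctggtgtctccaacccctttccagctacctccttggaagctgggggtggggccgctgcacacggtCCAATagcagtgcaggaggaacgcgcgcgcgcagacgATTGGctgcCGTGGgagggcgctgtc

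Disulfide isomerases, which form and rearrange the disulfide bonds of secreted proteins, were the group with the highest median, 0.24 on the log2 scale. All 6 measured members had a ratio above 1, as did 2861 of all 5076 measured genes. In a further list of 10 measured ER thioredoxin-fold proteins, 6 had a ratio above 1, with a median log2 ratio of 0.04. Pdia4 (ERp72) gave a signal of 1763 in FLS livers against 961 in DS livers, a ratio of 1.83, the highest of the 41 genes, and between 1.80 and 2.11 under the other scalings of the arrays. The other probe set of Pdia4 was near the array medians, at 148 in FLS livers against 175 in DS livers, so the difference rests on 1 probe set. The Pdia4 promoter is shown as that of the member with the highest ratio, with 3 copies of CCAAT in capitals and 0 of CCACG.
Pdia4 (chr6:47813513-47813762, - strand): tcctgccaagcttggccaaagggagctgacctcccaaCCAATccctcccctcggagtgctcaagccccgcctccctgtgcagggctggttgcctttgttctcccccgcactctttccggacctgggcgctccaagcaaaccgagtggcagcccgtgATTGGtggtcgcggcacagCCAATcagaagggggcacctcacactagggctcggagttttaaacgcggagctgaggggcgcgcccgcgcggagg
Of all windows, 33.8% hold a CCAAT and 28.3% a CCACG in these 250 bases on either strand.

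The other isomerases were higher by less than 25%. Pdia6 (P5) gave a signal of 4205 in FLS livers against 3429 in DS livers, a ratio of 1.23, and Pdia5 had 1356 in FLS livers against 1132 in DS livers, a ratio of 1.20. Pdia3 (ERp57), which works with calnexin and calreticulin on glycoproteins, had 5094 in FLS livers against 5054 in DS livers, a ratio of 1.01. P4hb, which encodes protein disulfide isomerase itself and is also a subunit of prolyl 4-hydroxylase and of the microsomal triglyceride transfer protein complex, had 11656 in FLS livers against 11083 in DS livers, a ratio of 1.05. Pdia3 and P4hb were thus close to level, and the higher ratios were those of Pdia4, Pdia6 and Pdia5.

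The ER oxidases, which pass oxidizing equivalents to the isomerases, had ratios slightly above 1 on their brightest probe sets only. Ero1b gave a signal of 1389 in FLS livers against 1198 in DS livers, a ratio of 1.16, while its other 2 probe sets were below 500 with ratios of 0.769 and 0.963. Ero1a, below the signal limit, had a ratio of 1.21, and its other 2 probe sets were near the array medians with ratios of 0.904 and 0.899.

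Among the sensors, none of the 5 measured genes was higher by 25% or lower by 20%, where 28.7% of all measured genes were. A count over 5 genes is too small to set the sensors apart from that share. Their median log2 ratio was 0.15. Ern1, which encodes IRE1 alpha, gave a signal of 1678 in FLS livers against 1403 in DS livers, a ratio of 1.20. Its other 4 probe sets were below 500 in both pools, with ratios from 0.922 to 0.969, so the higher ratio rests on 1 probe set. Its substrate Xbp1, whose mRNA is spliced by IRE1 into the form that encodes the active factor, had 5337 in FLS livers against 6202 in DS livers, a ratio of 0.861. All 4 probe sets of Xbp1 were measured and lay below 1, at 0.861, 0.910, 0.701 and 0.758. The signal of Xbp1 as deposited was thus lower in FLS livers on each of them. After division by the Actb ratio of 0.867, the brightest one had a ratio of 0.992 and the one at 0.910 passed 1. Which of the spliced forms of Xbp1 a probe set reads is not known here.

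Atf6 itself was level, and the genes around it were close to 1 or slightly higher. Atf6 gave a signal of 652 in FLS livers against 653 in DS livers, a ratio of 0.998. Its relative Atf6b, below the limit, had 232 in FLS livers against 223 in DS livers. Mbtps1, the site-1 protease that cleaves ATF6 and also the SREBPs, had 1117 in FLS livers against 906 in DS livers, a ratio of 1.23, and Mbtps2, the site-2 protease, had 320 in FLS livers against 336 in DS livers, below the limit. Creb3l3 (CREBH), a liver transcription factor that is released from the ER by the same proteases, had 5526 in FLS livers against 4973 in DS livers, a ratio of 1.11. Wfs1 (wolframin), an ER membrane protein that restrains ATF6, had 255 in FLS livers against 210 in DS livers, below the limit. The activity of these sensors depends on cleavage, splicing or phosphorylation, which mRNA signals do not measure.

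**Figure D3:**
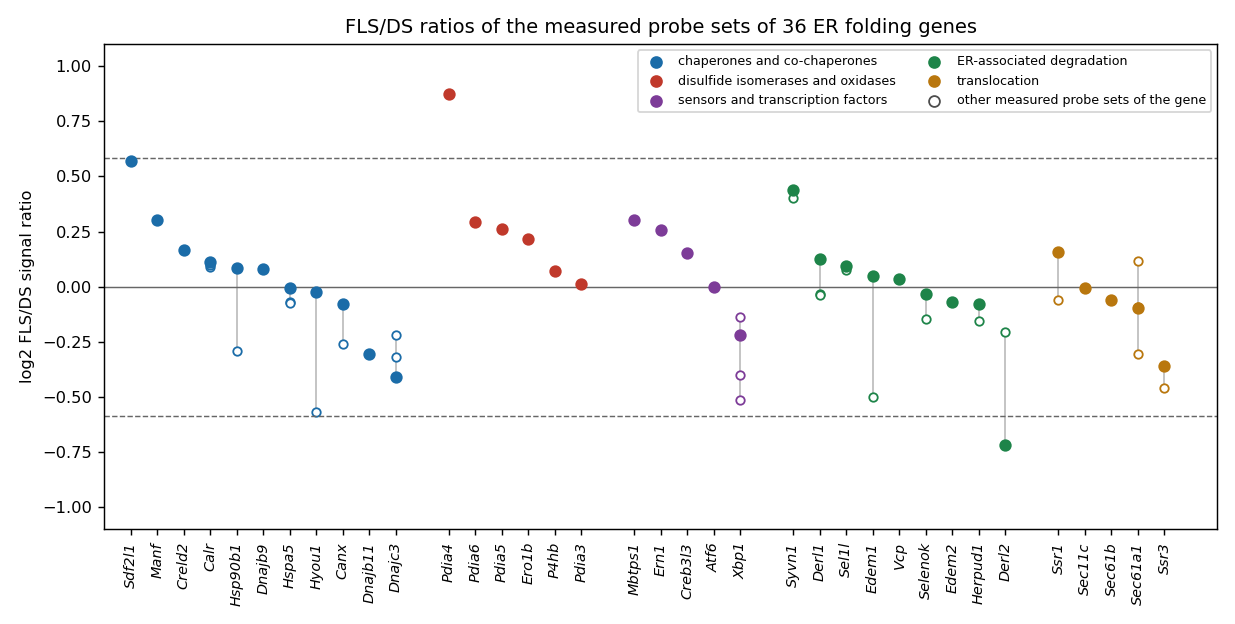
The log2 FLS/DS ratio of each measured probe set of the 36 measured genes, by group, with the probe set of highest mean signal filled and further ones open, and dashed lines at 1.5-fold. Pdia4 (0.88) lies above and Derl2 (-0.72) below the dashed lines, and the 4 probe sets of Xbp1 all lie below 0.

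Genes of ER-associated degradation (ERAD), which extracts misfolded proteins for the proteasome, had 9 measured members, with 0.03 as their median log2 ratio. The lowest ratio of the 41 genes was that of Derl2, which encodes derlin-2, a membrane protein of the retrotranslocation complex. Its signal was 2838 in FLS livers against 4669 in DS livers, a ratio of 0.608. On its other probe set the signal was 810 in FLS livers against 933 in DS livers, a ratio of 0.868, so the size of the difference was not the same on both. Derl1, its paralog, had 1910 in FLS livers against 1752 in DS livers, a ratio of 1.09, and from 0.973 to 1.09 over 3 measured probe sets. The derlins thus differed from each other, with Derl3 below the limit at 158 in FLS livers against 150 in DS livers. RefSeq gives 2 starts of transcription for Derl2, and the window with CCAAT (5 copies, 1 of CCACG) is shown as that of the member with the lowest ratio.
Derl2 (chr11:71019304-71019553, - strand): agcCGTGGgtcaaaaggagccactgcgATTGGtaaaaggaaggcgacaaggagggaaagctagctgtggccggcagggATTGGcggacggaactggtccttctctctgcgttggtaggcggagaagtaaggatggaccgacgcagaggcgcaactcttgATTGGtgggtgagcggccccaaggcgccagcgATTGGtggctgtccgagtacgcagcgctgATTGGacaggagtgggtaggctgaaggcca

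Syvn1, which encodes the ERAD ubiquitin ligase HRD1, gave a signal of 737 in FLS livers against 544 in DS livers, a ratio of 1.35. Its other probe set had 595 in FLS livers against 451 in DS livers, a ratio of 1.32, so both were higher in FLS livers by a like amount. Sel1l, the partner that stabilizes HRD1, had 1386 in FLS livers against 1297 in DS livers, a ratio of 1.07. The ligase thus had the higher ratio of the pair.

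Herpud1 (HERP), an adaptor of this ligase and a strong target of the unfolded protein response, gave a signal of 7636 in FLS livers against 8049 in DS livers, a ratio of 0.949, and 0.899 on its other probe set. Edem1, which marks glycoproteins for degradation, had 1684 in FLS livers against 1628 in DS livers, a ratio of 1.03, but 0.707 on its other probe set, at 1092 in FLS livers against 1544 in DS livers. The probe sets of Edem1 lay on both sides of 1. Edem2 had a ratio of 0.953, Vcp, the ATPase that pulls proteins out of the membrane, of 1.02, and Selenok, a selenoprotein that binds derlins, of 0.977.

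Translocation genes had a median log2 ratio of -0.06, and 4 of 5 had a ratio below 1, as did 2215 of all 5076 measured genes. Sec61a1 and Sec61b encode subunits of the translocon channel and had ratios of 0.935 and 0.958, with signals of 3274 and 5056 in FLS livers against 3503 and 5278 in DS livers. The 4 measured probe sets of Sec61a1 ran from 0.809 to 1.09. Sec11c, a catalytic subunit of signal peptidase, had 1218 in FLS livers against 1223 in DS livers, a ratio of 0.996. The channel genes and the peptidase gene were thus close to 1 on their brightest probe sets.

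The translocon-associated (TRAP) subunits among the members were apart from each other. Ssr3 gave a signal of 2973 in FLS livers against 3813 in DS livers, a ratio of 0.780, and 0.728 on its other probe set. Ssr1 had 4115 in FLS livers against 3693 in DS livers, a ratio of 1.11, and 0.958 on its other measured probe set. Both probe sets of Ssr3 were lower in FLS livers, and those of Ssr1 lay on both sides of 1. Outside the members, the TRAP subunits Ssr2 and Ssr4 had ratios of 1.01 and 0.828.

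Across the set, the 41 genes were represented by 96 probe sets, of which 61 were measured. Among the measured ones, 1 of Pdia4 passed 1.5-fold upward and 1 of Derl2 downward. The shares of all measured genes given above count genes, and a share over all measured probe sets is not given here. Of 17 members with more than 1 measured probe set, 12 had all of them on the same side of a ratio of 1. The pooled SD of the log2 ratio between measured probe sets of a gene was 0.18 over these 17 members and 0.22 over 1424 genes with several measured probe sets. For 24 of the 36 members (66.7%) the log2 ratio was smaller in size than the SD of 0.22, as it was for 57.3% of all measured genes. This spread lies between probe sets and not between mice.

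Other genes of the secretory pathway were likewise close to 1. Of 105 genes in 6 further lists, 82 were measured, with a median log2 ratio of -0.0047. None of them passed 1.5-fold upward, where 6.11% of all measured genes did, and 2 (2.44%) did so downward, where 4.49% did. The lower ones were Tmx4, a thioredoxin-like membrane protein, at 631 in FLS livers against 1089 in DS livers (ratio 0.579), and Sec13, a coat component of COPII vesicles, at 566 in FLS livers against 857 in DS livers (ratio 0.660). Among the other ER chaperones and folding enzymes, Sil1, a nucleotide exchange factor of BiP, had the highest ratio at 1.42 and Serp1 the lowest at 0.739. Among the other ERAD factors, Ube2j1, the ubiquitin-conjugating enzyme of the HRD1 complex, had a ratio of 1.31 and Ufd1, a cofactor of VCP, of 0.710. The 10 measured subunits of oligosaccharyltransferase, which attaches N-glycans in the ER, ranged from 0.809 to 1.18. Of the signal peptidase subunits, Spcs2 had a ratio of 1.29 and Spcs1 of 0.819.

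The PERK arm and the integrated stress response, which other stresses also activate, had a few genes with large ratios. Of 7 measured genes, 2 passed 1.5-fold upward and 1 downward, where 6.11% and 4.49% of all measured genes did. Eif2ak3, which encodes PERK, gave a signal of 542 in FLS livers against 310 in DS livers (ratio 1.75), the pseudokinase gene Trib3 had 786 in FLS livers against 190 in DS livers (ratio 4.13), and Chac1, a glutathione-degrading enzyme, had 210 in FLS livers against 737 in DS livers (ratio 0.285). Each of these 3 genes was above 500 only in the pool where it was higher. The 4 genes above 500 in both pools ran from 0.749 to 1.24, so none of them passed 1.5-fold. Among them was Atf4, at 1.16, and Ddit3 (CHOP), below the limit, had 1.09. Both were looked up after their values had been seen. Gdf15 was also on this list, but no probe set was named to it here, so these counts leave it out. The paper lists Gdf15 as more than 1.5-fold higher in FLS livers, with signals above 500 in both.

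The cytosolic heat shock proteins, which do for the cytosol what the ER chaperones do for the ER, had lower signals in FLS livers for most of the list, which also holds the mitochondrial chaperones Hspd1 (ratio 0.888) and Hspe1 (ratio 0.805). Of 12 measured genes, 7 passed 1.5-fold downward and 0 upward, with a median log2 ratio of -0.66, and over the other scalings of the arrays the number lower was 5 to 7. Of the 10 genes above 500 in both pools, 5 passed 1.5-fold downward, where 3.52% of all 4406 such genes did. Hspb1 gave a signal of 339 in FLS livers against 3101 in DS livers (ratio 0.109), Dnajb1 of 1286 in FLS livers against 5262 in DS livers (ratio 0.244) and Hsph1 of 1320 in FLS livers against 3599 in DS livers (ratio 0.367). Hspa1a and Hspa1b, near-identical copies whose probe sets may read both, had ratios of 0.204 and 0.456. A ratio below 1 was seen for 11 of the 12 measured genes, and Hspa4 alone was above 1, at 1.06. Of the HSP70 family, to which Hspa5 (ratio 0.995) belongs, Hspa1a and Hspa1b had the ratios above. The constitutive Hspa8 of this family had a ratio of 0.878. Of the HSP90 family, to which Hsp90b1 (ratio 1.06) belongs, Hsp90aa1 had a ratio of 0.604. No test of a difference between the ER and cytosolic chaperones was possible with 1 array per strain.

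**Figure D4:**
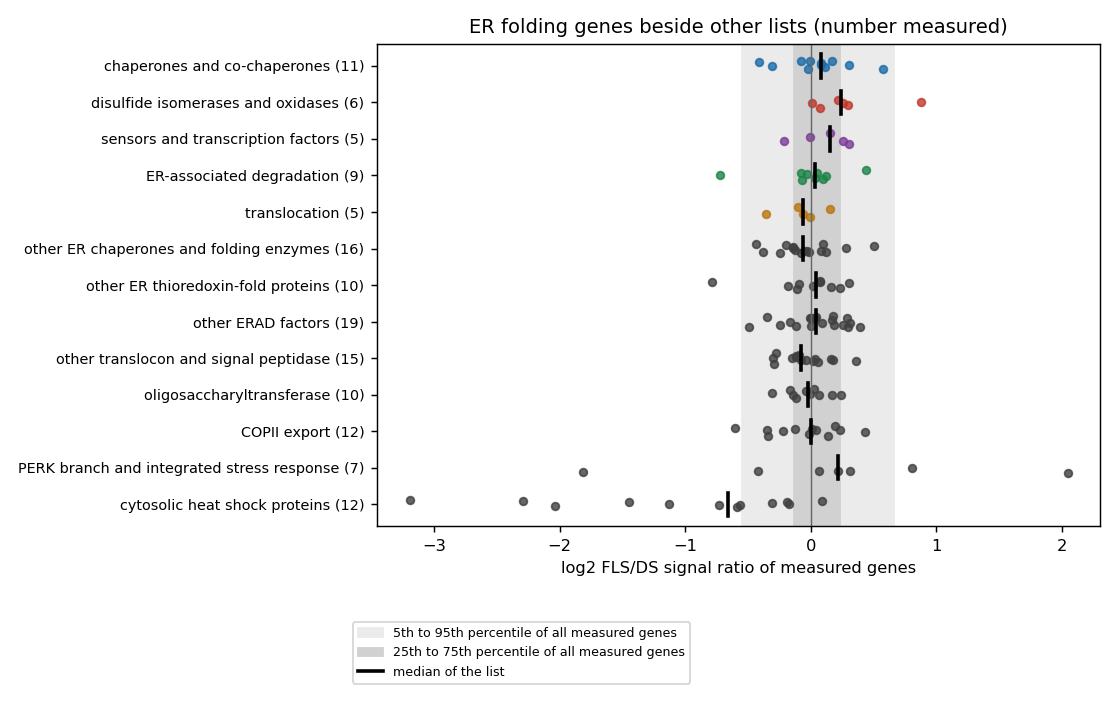
The log2 FLS/DS ratio of each measured gene (points) and the median (bars) for the 5 groups of ER folding genes (colored), 6 further lists of the secretory pathway, the PERK arm and the cytosolic heat shock proteins, with the number measured in parentheses and shaded ranges for all 5076 measured genes. The ER groups cluster around 0, with medians from -0.06 to 0.24, while the heat shock proteins extend to -3.19.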

How the data were processed

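Pooled liver RNA of 3 FLS and 3 DS mice was hybridized to 2 Affymetrix mouse genome arrays. The files deposited by the authors hold linear signal intensities, summarized with the MBEI (PM-only) model from the perfect-match probes and normalized. Affy is named in the submitters' processing notes, with no version, and which normalization set the arrays against each other is not given. FLS/DS ratios were computed for 45101 probe sets with no offset. The platform annotation gave 1 symbol to 34958 probe sets, several to 932 and none to 9211. Symbols were updated through Entrez numbers for 34754. Each gene was read from the probe set whose mean signal was highest and was measured above 500 in either pool.

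The members, lists and alternatives were chosen with earlier results of these data known. All 41 members were named, and up to 4 measured genes of each other list with the largest absolute log2 ratio. Hspa1b, Hspa4, Hspa8, Hspd1, Hspe1, Hsp90aa1, Ssr2, the marker genes and the genes outside the lists were picked after their values were seen. Alternatives were 4 scalings, an offset of 50, the median over probe sets, omission of _x_at and _s_at probe sets, other signal limits (above 500 in both pools was extended to the other lists after seeing the data) and other folds (25% higher or 20% lower, and 2-fold). Motif positions count from the RefSeq start, and 1668 of 1668 overlapping windows of opposite strands were reverse complements. The calculations were tested on simulated data. Software was pandas 2.3.3, numpy 2.4.6, statsmodels 0.14.6 and matplotlib 3.10.9 under Python 3.11.15. The number of arrays limits the precision.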

Additional observations from a re-analysis of the deposited data

How the results depend on the processing

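The number of members at least 1.5-fold higher was 1 and lower 1, and it kept these values under quantile normalization, loess, an offset of 50, omission of _x_at and _s_at probe sets and all other signal limits. It was 2 higher after centring, 3 higher and 0 lower after division by Actb, 0 and 0 with the median over probe sets, 3 and 3 at the limits of 25% higher and 20% lower, and 0 and 0 at 2-fold. The median log2 ratio of the members became 0.27 after division by Actb and -0.040 with the median over probe sets. Division by Actb, which adds the same amount to every gene, gave medians of 0.28 for chaperones, 0.44 for disulfide isomerases, 0.36 for sensors, 0.24 for ER-associated degradation and 0.14 for translocation. The median over probe sets, which includes dim ones, gave -0.025 for chaperones, -0.0023 for sensors and -0.091 for ER-associated degradation, so that the signs of these medians and of that over all members turned, as that of translocation did with Actb. The median of ER-associated degradation was -0.033 without _x_at and _s_at probe sets, and that of chaperones -0.0077 above a signal of 1000. The median over probe sets also moved Pdia4 to a log2 ratio of 0.32, Derl2 to -0.46, Ern1 to -0.077, Ero1b to -0.054, Ero1a to -0.15, Edem1 to -0.23 and Ssr1 to -0.18, where the sign of the last 5 turned. Without _x_at and _s_at probe sets, Hyou1 had -0.57 and Xbp1 -0.51. No paired analysis was possible because each strain has 1 array. Depth has no direct measure on arrays, and ratios of signals near the array medians of 120.3 in FLS and 125.2 in DS livers are the least certain. RNA of mice was pooled, so differences between strains and between mice cannot be told apart.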

Other observations

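Outside the 41 genes, 37 genes had an exact ERSE or ERSE-II in their promoter window, of which 5 were measured. Their ratios ran from 0.659 for Lgalsl, at 457 in FLS livers against 694 in DS livers, to 1.29 for Rbm39, at 1269 in FLS livers against 984 in DS livers. Krtcap2, a subunit of oligosaccharyltransferase, had a ratio of 1.02, Nucb1, a calcium-binding protein of the Golgi, of 1.19, and Rcl1 of 1.05. The median log2 ratio of these 5 genes was 0.07. Below the signal limit, Acnat2, an acyltransferase gene with an ERSE match, gave a signal of 465 in FLS livers against 103 in DS livers, where the DS signal was below the array median. These genes were looked up after their values had been seen.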
